A study of Drosophila melanogaster with 8 samples.

Results

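Pools 3 and 4 were 2 separately collected pools of about 240 adult female Drosophila melanogaster each, hybridized against each other on 2 of the 8 arrays of the series. The 2 arrays were those whose titles name ethanol pools 3 and 4, array 212 with normal label (pool 3 in Cy3, pool 4 in Cy5) and array 220 with the dyes exchanged (reversed label). Flies of both pools were wild-type Oregon-R, 4 to 10 days old, kept at 16 h light, 8 h dark and 60% relative humidity. Both pools were sprayed in a Potter's tower, a laboratory sprayer that coats insects evenly, with 2 mL of 99% ethanol, and RNA was taken 6 h later. Pools 1 and 2, 5 and 6, and 7 and 8 had the same strain, sex, age, treatment and time, so no treatment separates any of the 8 pools, and whatever differs within a pair is a difference between identically handled pools or an error of measurement. Each pool is a mix of many flies and each pair was measured on 2 arrays of the same RNA, so the pair counts as 1 biological comparison and the spread between its 2 arrays is technical.

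A hybridization of this kind asks which genes a platform reports as different when the experiment supplies no difference. On a 2-colour array the RNA of each pool carries 1 dye and each spot gives the ratio of the 2 pools. Some cDNAs bind or emit better with 1 of the dyes. When the dyes are exchanged and the ratio is kept as 1 pool over the other, a difference between pools keeps its sign on both arrays and a dye preference changes sign. Female flies have ovaries and no testes, and many genes of the fly have paralogs used in the male germline, among them copies of tubulins, mitochondrial enzymes, proteasome subunits and translation factors.

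The array carried 16896 spots for 8448 cDNA clones, each clone spotted at 2 neighbouring spot numbers that were averaged. The deposited log2 ratios were used with their sign as deposited, the median of each array was taken off, and the average of the 2 arrays was taken as the pool difference. The labels do not give which pool is the numerator, so "lower" and "higher" below mean lower and higher in the numerator pool of pools 3 and 4. The base of the logarithm is likewise inferred from the size of the values. A gene symbol was known for 2833 clones, and the others are given by clone number. A log ratio holds no expression level, so the presence of female tissue in the pools could not be checked from these values.

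The 2 arrays of pools 3 and 4 agreed for few clones. Across the 8448 clones their values correlated at -0.12 (Pearson) and -0.22 (Spearman), as a description over clones that share both RNA samples and the array. The sign was the same on both arrays for 3504 clones, 41.5% of all. The corresponding shares were 44.1% in pools 1 and 2, 59.5% in pools 5 and 6 and 44.2% in pools 7 and 8. The robust SD (from the median absolute deviation) of the average of the 2 arrays was 0.183 log2 units, and that of their half-difference, in which a dye preference would appear, was 0.240. The arrays thus differed from each other more widely than their average differed from 0. The SD over clones was 0.42 on the normal-label array and 0.384 on the reversed-label array, and the 2 spots of a clone correlated at 0.371 and 0.524.

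Of the clones with the same sign on both arrays, 1752 lay above 0 and 1752 below. Past a threshold of size they lay almost all on 1 side. Past 1.5-fold (0.58 log2 units) on both arrays in the same direction, 83 clones were lower (0.982% of 8448) and 2 were higher (0.0237%). Past 2-fold on both arrays, 22 were lower (0.260%) and 0 were higher (0%). In opposite directions, 82 clones passed 1.5-fold and 14 passed 2-fold on both arrays. The other pairs had 5 lower and 0 higher past 2-fold in the same direction in pools 1 and 2, 2 lower and 7 higher in pools 5 and 6, and 0 of either in pools 7 and 8. All 4 spots passed 1.5-fold lower for 54 clones of pools 3 and 4 and higher for 0, against 32 and 3 in pools 1 and 2, 15 and 35 in pools 5 and 6, and 2 and 0 in pools 7 and 8.

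**Figure D1:**
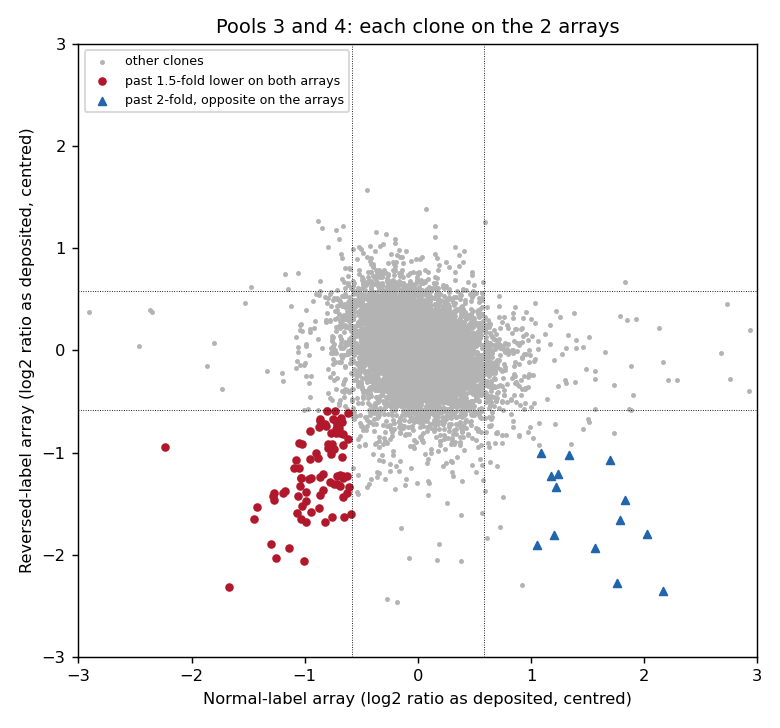
Each point is 1 of the 8448 clones, with its log2 ratio on the normal-label array of pools 3 and 4 on the x axis and on the reversed-label array on the y axis; dotted lines mark 1.5-fold and 18 clones beyond 3 log2 units on either array are not drawn. The 83 clones past 1.5-fold lower on both arrays (red circles) form a tail at lower left with no counterpart at upper right, and the 14 clones past 2-fold in opposite directions (blue triangles) lie at lower right.

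The low side was found again when 1 spot of each clone was used to choose and the other to read. The odd spots of both arrays put 105 clones past 1.5-fold lower, and the even spots of these clones had a median of -0.84 (interquartile range -1.12 to -0.48), with 89 below 0 on both arrays. The even spots chose 111 clones, whose odd spots had a median of -0.75, with 90 below 0 on both arrays. The high side was not found again in this way: of 13 clones chosen by the odd spots and 12 by the even spots, 0 passed 1.5-fold on both arrays by the other spot, and the medians read were 0.28 and 0.00. The 2 spots of a clone lie on the same array and share its RNA and dyes, so this repeats the spotting and nothing else.

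No clone passed the test against the technical spread. In a limma fit of all 8 arrays with a coefficient for each pair and a common dye term, 0 of 8448 clones (0%) had an adjusted p under 0.05 for pools 3 and 4. The smallest adjusted p was 0.11, and 625 clones (7.4%) had an unadjusted p under 0.05, of which 408 were lower and 217 higher. All 22 clones past 2-fold lower on both arrays were among the 625, with limma adjusted p from 0.11 to 0.221, as were 81 of the 83 past 1.5-fold. Since these clones were chosen by the values that the test reads, their share is a description. The fit left 3 residual degrees of freedom. With only 1 array of the pair in the fit, 7 clones were called without the normal-label array and 18 without the reversed-label array, and the lone array was then assumed to vary like the others. Set against the mean of the other 3 pairs in the same fit, pools 3 and 4 again had 0 calls (0%), 843 clones with an unadjusted p under 0.05 and a smallest limma adjusted p of 0.198. Without the normal-label array this contrast had 6 calls, and without the reversed-label array 13.

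The 15 clones furthest below 0 on both arrays with a single gene symbol were eIF4E5, Fum4, lky and 12 clones of genes named by number only. eIF4E5, a paralog of the cap-binding translation initiation factor eIF4E, had -1.45 on the normal-label array and -1.65 on the reversed-label array, an average of -1.55 ± 0.14 (SD of the 2 arrays). Its 4 spots lay between -1.93 and -1.31, so every spot was past 2-fold. Fum4, a paralog of the citric acid cycle enzyme fumarase, had -1.01 and -2.06, an average of -1.54 ± 0.74. On the reversed-label array its ratio was about 1 log2 unit further from 0 than on the normal-label array. CG9254, named by number only, had -1.42 and -1.53 (average -1.47 ± 0.07), with its arrays close together. It also had the smallest unadjusted p of the named clones (5.73e-05 by limma, adjusted p 0.11).

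CG31639 had the lowest average of these clones, -1.64 ± 0.56, from -1.25 on the normal-label and -2.03 on the reversed-label array. CG3494 had -1.30 and -1.90, an average of -1.60 ± 0.42. CG15461 had -1.14 and -1.93, an average of -1.53 ± 0.56. In these 3 clones the reversed-label array gave the larger difference, as it did in 67 of the 83 low clones. The other clones of the 15 lowest with 1 symbol were CG7202, CG12853, CG8526, CG31538, lky, CG12860, CG33704, CG2854 and CG30430, with averages from -1.34 to -1.07. All 15 passed 1.5-fold on all 4 spots. The limma adjusted p over the 15 ran from 0.11 to 0.181.

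**Figure D2:**
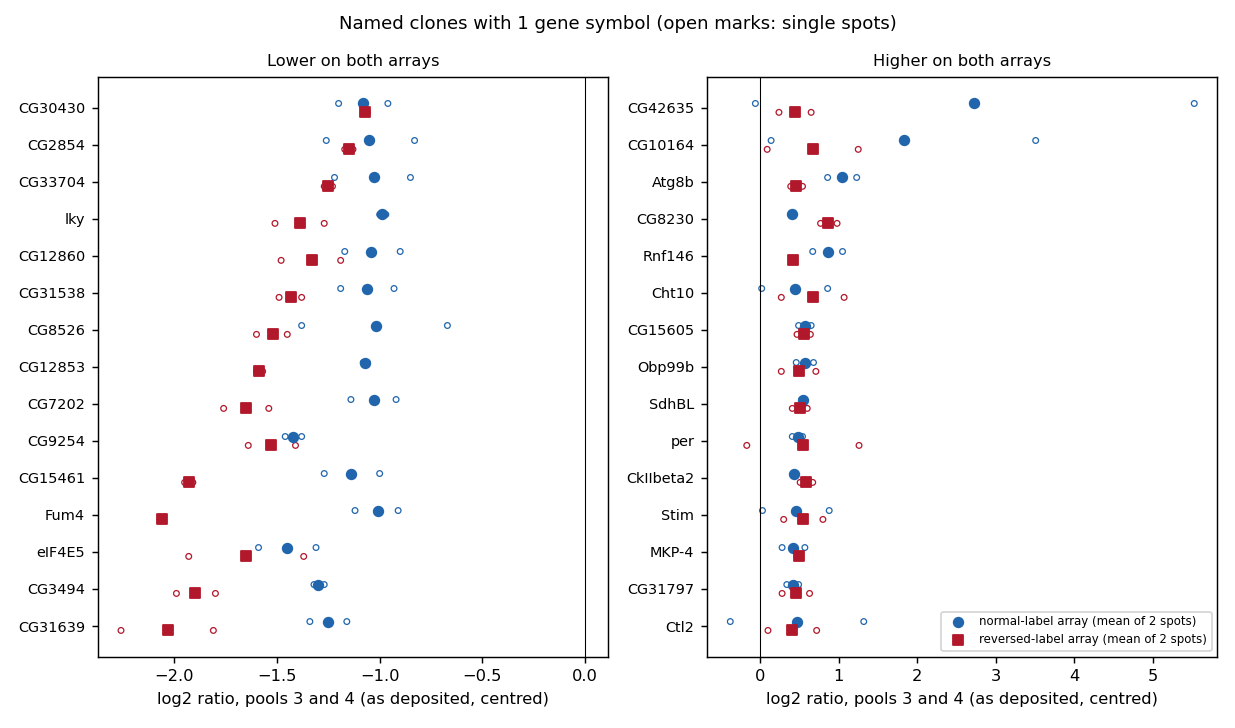
Log2 ratios on the 2 arrays of pools 3 and 4 for the 15 clones with 1 gene symbol that were furthest below 0 on both arrays (left) and the 15 furthest above 0 (right); filled marks are the mean of 2 spots and open marks single spots. The low clones lie past -0.99 on both arrays in all 15 cases, while the filled marks of most high clones lie between 0.40 and 1.04 and the largest, of CG42635 and CG10164, rest on 1 spot.

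Among the 83 low clones, 43 had 1 gene symbol (39 genes), 1 had several and 39 had none. A CG or CR number was the only name of 30 of the 39 genes (916 of the 2377 genes with 1 symbol on the array are named in this way). The other 9 were eIF4E5, Fum4, lky, tomboy20, TTLL6B, Zmynd10, betaTub65B, kek4 and Osi6. The gene tomboy20 encodes a paralog of Tom20, a receptor for import of proteins into mitochondria, and had -0.78 on the normal-label and -1.29 on the reversed-label array. TTLL6B, of the tubulin tyrosine ligase-like family that modifies microtubules, had -1.05 and -0.91. Zmynd10, known for assembly of the dynein arms of cilia and sperm tails, had -0.62 and -0.87, close to the threshold. The beta-tubulin gene betaTub65B had -0.66 and -1.44. The remaining pair, kek4 of the Kekkon transmembrane proteins and Osi6 of the insect Osiris family, had -0.79 and -0.96 (kek4) and -0.95 and -0.79 (Osi6). All of these clones lay below 0 on both arrays, and none passed either limma test. The lowest average of all 83, -1.99, belonged to clone 6274, which has no symbol here.

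At the threshold itself, clones 237, 4855 and 3333 lay just inside with a smaller difference of -0.59, and clones 7842 and 3331 and a clone of CG30430 lay just outside with -0.58.

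Different clones of a gene often did not agree. Of the 39 genes, 18 were represented by more than 1 clone, 72 clones in all, and 22 of these clones were in the low set. For none of the 18 genes were all clones in it. The uncharacterised gene CG30430 came closest, with 5 clones averaging -1.07, -0.73, -0.84, -0.25 and -0.78, of which 3 were in the set. CG33704 had 2 clones near -1.2 (-1.25 and -1.14) and 2 near 0 (-0.05 and 0.01). For CG12902, with 14 clones, averages ran from -1.33 to 0.29 and 7 lay below 0. The second clones of CG31639 (-0.20), CG15461 (-0.03), CG7202 (0.00) and CG9254 (-0.40) were all nearer 0 than the first. So were the second clones of lky (-0.06), CG8526 (-0.03) and CG31538 (-0.01), and the other clones of CG12853 (-0.05 and -0.05). The first clones were chosen for being far below 0, which by itself favours this order. Symbols come from the platform annotation and were not checked against clone sequences, so whether clones of 1 symbol measure the same transcript was not tested.

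The testis and male germline list held 27 clones of 15 genes and none of the genes of the 83 low clones. Its members were picked by symbol with earlier results of these data known, so the absence of low genes from it is no result. Whether the low clones include other genes of the testis was not tested. Its clones had a median average of 0.07, against 0.00 over all clones. Past 1.5-fold on both arrays, 0 were lower and 0 higher, against 0.982% and 0.0237% of all clones, shares at which a list of this size need not hold any. The 7 clones of S-Lap7, a leucyl aminopeptidase-like protein of sperm, ran from -0.32 to 0.46, and the 7 of boly, a gene of late spermatogenesis, from -0.13 to 0.61. The lowest member was dj (don juan), a sperm tail protein, with -0.33 and -0.45 on the 2 arrays. The testis beta-tubulin betaTub85D had 0.45 and 0.05. Proteins of the male accessory gland were represented by 4 clones of 3 genes, of which Acp36DE had -0.16 and -0.20 and Obp8a -0.19 and -0.15. For Acp53C14a the arrays gave 1.85 and 0.30 at clone 8140, where a single spot read 3.86, and -0.27 and 0.25 at the other clone.

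The low clones were also low in pools 1 and 2, and near 0 in the other 2 pairs. Over the 83 clones the median average was -1.01 in pools 3 and 4 (interquartile range -1.22 to -0.83), a value fixed in sign by the choice of clones. In pools 1 and 2, whose values did not enter the choice, it was -0.72 (interquartile range -0.90 to -0.47), with 79 of 83 clones below 0, against 48.6% of all 8448 clones. The medians were 0.05 in pools 5 and 6 and -0.05 in pools 7 and 8, with 37 and 55 of 83 below 0. On single arrays the medians of the 83 were -0.84 (normal label) and -1.23 (reversed label) in pools 3 and 4, -0.64 and -0.83 in pools 1 and 2, 0.26 and -0.16 in pools 5 and 6, and -0.28 and 0.17 in pools 7 and 8. So both arrays of pools 1 and 2 were low, while in the last 2 pairs the arrays went opposite ways.

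Past 1.5-fold lower on both arrays of pools 1 and 2 were 60 clones, and 44 of them were in the set of 83, which is 53.0% of the low clones of pools 3 and 4 and 73.3% of those of pools 1 and 2. Of the 41 such clones of pools 5 and 6 and the 4 of pools 7 and 8, 0 were shared. Over all clones 0.982% were in the set of 83, a share at which 41 or 4 clones need not include any. eIF4E5 had -1.19 and -1.05 on the 2 arrays of pools 1 and 2, 0.50 and -0.07 in pools 5 and 6, and -0.75 and 0.24 in pools 7 and 8. Fum4 had -1.01 and -0.93 in pools 1 and 2 and averages of 0.22 and -0.17 in the last 2 pairs. All 15 lowest clones with 1 symbol lay below 0 in pools 1 and 2, from -1.26 to -0.46. The order of the pools within a pair is arbitrary, so the shared sign says only that the numbering of pools and the low signal fell the same way in 2 pairs.

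**Figure D3:**
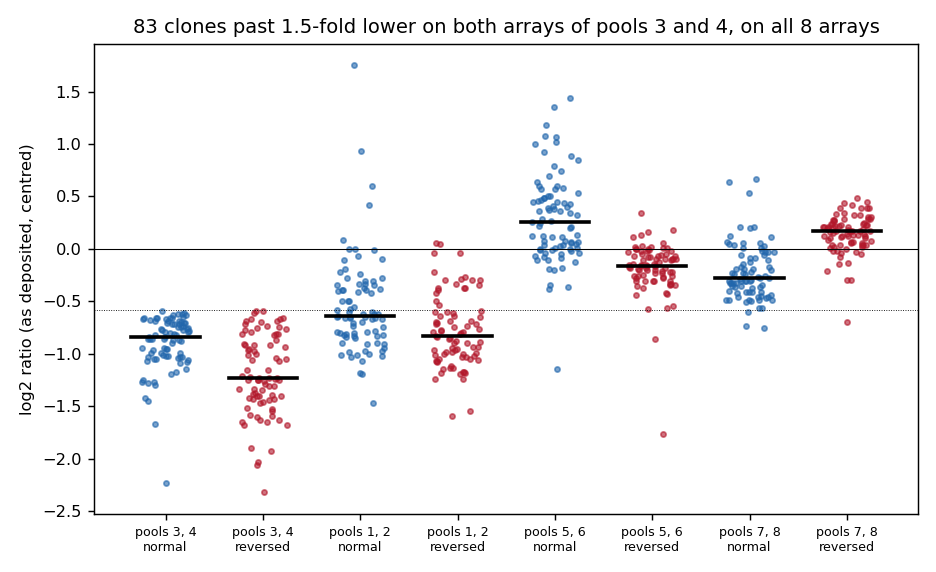
Log2 ratios of the 83 clones past 1.5-fold lower on both arrays of pools 3 and 4, on all 8 arrays; each point is a clone, the black bar is the median and the dotted line marks 1.5-fold lower. The medians are -0.84 and -1.23 on the arrays of pools 3 and 4, where the clones were chosen, -0.64 and -0.83 on those of pools 1 and 2, and between -0.28 and 0.26 on the other 4 arrays.

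Some low clones were low in pools 3 and 4 without being low in pools 1 and 2. The clearest was CG33710, with -2.23 on the normal-label and -0.95 on the reversed-label array (average -1.59 ± 0.91), against 0.00 and -0.27 in pools 1 and 2, 0.34 and -0.19 in pools 5 and 6, and 0.03 and 0.04 in pools 7 and 8. Its 2 spots agreed on each array, at -2.27 and -2.18 and at -0.95 and -0.94. betaTub65B averaged -1.05 in pools 3 and 4, 0.19 in pools 1 and 2 and 0.67 in pools 5 and 6. In all, 4 of the 83 had an average above 0 in pools 1 and 2, and betaTub65B was the only 1 of these with a symbol. Whether the 2 pairs differ for these clones was not tested apart from the contrast with the mean of the other pairs.

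The low clones were not spread evenly over the clone numbers. Folded on runs of 264 clone numbers and split into 24 groups of 11 places (352 clones each), groups 19 to 22 held 70 of the 83 (84.3%) and 16.7% of all clones. Within those groups 4.97% of 1408 clones were low, against 0.185% of 7040 elsewhere. These groups also held more clones with a gene symbol, 46.6% to 64.2%, than groups 1 to 18, where the share ran from 10.5% to 36.4%. Group 23, with 57.1%, held 0 low clones. The median of all clones in groups 19 to 22 was -0.01 in pools 3 and 4, -0.04 on the normal-label and 0.00 on the reversed-label array, so the clones there were not low as a body. The clones of the 18 genes with several clones lay in the same groups in 71 of 72 cases, and 22 of those 71 were low. Of the testis list, 22 of the 27 clones also lay there, with a median of 0.09. The low clones in the other groups numbered 13, and 12 of them were below 0 in pools 1 and 2 as well. The period of 264 and the groups 19 to 22 were chosen after seeing the values, so the contrast of these groups with the rest is a description. A period of 132 gathered the low clones slightly more (0.775 against 0.707 on a scale where 1 means a single place). Neither the layout of the array nor the source library of each clone is given in the sources used here, and the part of either in the result was not tested.

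**Figure D4:**
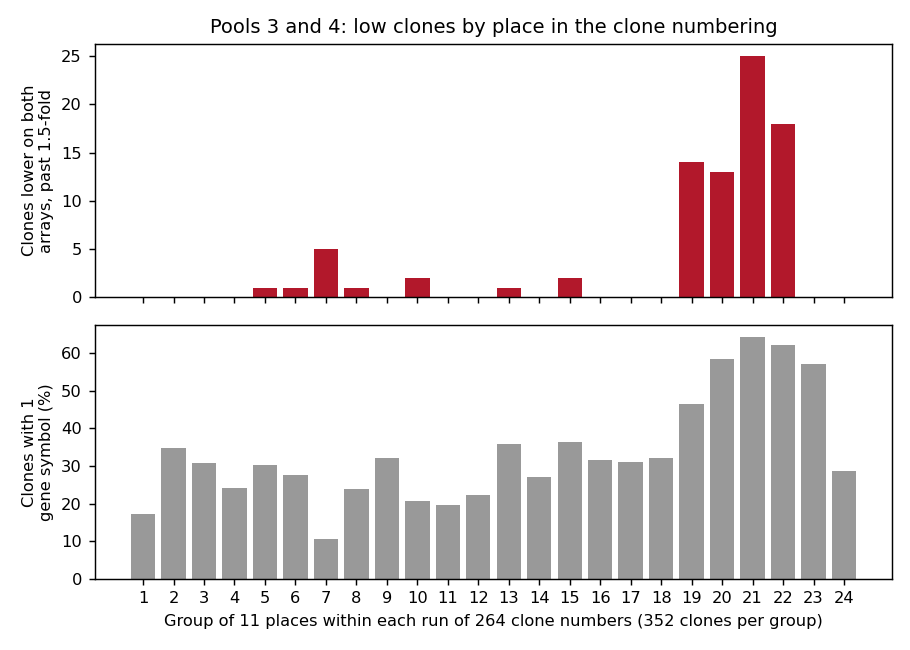
Number of clones past 1.5-fold lower on both arrays of pools 3 and 4 (top) and percentage of clones with 1 gene symbol (bottom) in 24 groups of 11 places within each run of 264 clone numbers. Groups 19 to 22 hold 14, 13, 25 and 18 of the 83 low clones, and no other group holds more than 5.

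By chromosome arm of the named gene, low clones numbered 7 of 435 on X, 6 of 616 on 2L, 15 of 571 on 2R, 8 of 524 on 3L, 7 of 665 on 3R and 0 of 22 on 4. The share was 2.63% on 2R and 1.52% over all arms. The clones of 1 gene are counted apart here, and CG30430, CG12902 and CG33704 are on 2R with 3, 2 and 2 low clones.

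On the high side the differences were small. The 2 clones past 1.5-fold on both arrays were clone 6276, without a symbol, with 0.59 and 1.26, and CG10164, with 1.83 and 0.67. The 4 spots of clone 6276 lay between 0.53 and 1.32, whereas those of CG10164 were 3.51, 0.14, 0.09 and 1.25, and its other clones averaged -0.24 and 0.06. CG42635 had 2.73 and 0.45, with a single spot at 5.53 and its neighbour at -0.06. Both arrays lay close together in CG15605 (0.57 and 0.56), SdhBL (0.54 and 0.51), per (0.48 and 0.54) and Obp99b (0.57 and 0.49). SdhBL is a paralog of the iron-sulphur subunit of succinate dehydrogenase. per is the period gene of the circadian clock, and its spots on the reversed-label array were -0.17 and 1.26. Obp99b encodes an odorant-binding protein, a class of small carriers, and averaged 0.53 ± 0.06.

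The other high clones were Cht10 (a chitinase, 0.44 and 0.67), Rnf146 (a ubiquitin ligase, 0.86 and 0.42), CG8230 (0.40 and 0.87), Atg8b (a ubiquitin-like autophagy protein, 1.04 and 0.46), Stim (a calcium sensor of the endoplasmic reticulum, 0.46 and 0.55), CkIIbeta2 (a regulatory subunit of casein kinase II, 0.43 and 0.59), MKP-4 (a MAP kinase phosphatase, 0.42 and 0.49), CG31797 (0.42 and 0.46) and Ctl2 (of the choline transporter-like family, 0.47 and 0.41). Their limma adjusted p with the rest of the 15 ran from 0.184 to 0.803. The spots of Ctl2 were -0.38 and 1.32 on the normal-label and 0.10 and 0.72 on the reversed-label array. Those of Stim ran from 0.03 to 0.88 and those of the Cht10 clone from 0.02 to 1.07. Of the 15 high clones, 12 had all 4 spots on the same side of 0, and 0 had all 4 past 1.5-fold. For SdhBL, CG15605, Stim, CkIIbeta2 and CG8230 the second clone averaged below 0 (-0.13, -0.18, -0.08, -0.25 and -0.36). The other clones of Cht10 ran from -0.20 to 0.10. In pools 1 and 2, 13 of the 15 were below 0.

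The average of the 2 arrays passed 2-fold for 62 clones lower (0.734% of 8448) and 19 higher (0.225%). The 2 sides differed in how the average came about. Of the 62 lower, 45 passed 1.5-fold on both arrays, 38 did so on all 4 spots, and 6 had opposite signs on the arrays. Of the 19 higher, 1 passed 1.5-fold on both arrays, 0 on all 4 spots, 8 had opposite signs, and for 14 a single spot made up over 75% of the summed signal in that direction (12 of the 62 lower). The threshold of 75% was chosen after seeing the values. Averages past 2-fold numbered 81 in pools 3 and 4, against 46, 136 and 25 in pools 1 and 2, 5 and 6, and 7 and 8.

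Single spots also made most of the calls of the test against the spread of the other pool pairs. In this limma test the 4 pair averages were used and the other 3 pairs, taken around 0, gave the spread. It called 14 of 8448 clones (0.166%), 7 higher and 7 lower, at an adjusted p under 0.05, and 297 clones (3.52%) had an unadjusted p under 0.05. Of the 14, 1 spot made up over 75% of the summed signal in 12, and the arrays had opposite signs in 5. The smallest adjusted p by limma, 1.88e-05, was that of clone 3823, with -13.09 on both spots of the normal-label array and -0.10 and -0.33 on the reversed-label array. The lowest value deposited for the normal-label array was also -13.09, so this clone lay at the extreme of that array. CG7888 had -10.51 on 1 spot, and its other 3 spots lay between -0.62 and -0.12. Dis3l2, an exoribonuclease gene, had -11.13 on 1 spot and 0.11, 0.16 and 0.29 on the others, and CG8008 had 6.89 on 1 spot and -0.47 to 0.50 on the others. CG33710 was the 1 called clone past 1.5-fold on both arrays (adjusted p 0.0258 by limma). The same test called 2 clones in pools 1 and 2, 133 in pools 5 and 6 and 8 in pools 7 and 8. The count for pools 3 and 4 changed to 8 without the normal-label array and 47 without the reversed-label array of the pair. It was 9 without pools 1 and 2, 29 without pools 5 and 6 and 6 without pools 7 and 8. eIF4E5 and Fum4 were not called (adjusted p 0.808 and 0.742 by limma). Their averages in pools 1 and 2, -1.12 and -0.97, are part of the spread they were tested against. This test can therefore hardly call clones that are low in both pairs.

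Clones opposed past 2-fold on the arrays of pools 3 and 4 shared the sign of their half-difference in all pairs. Past 2-fold on both arrays, 14 clones were above 0 on the normal-label and below 0 on the reversed-label array, and 0 the other way. Of these, 9 had a symbol. alphaTub85E, an alpha-tubulin, had 2.17 and -2.36, and its average was -0.10. Hsc70-2, a heat shock cognate protein, had 1.76 and -2.28 at 1 clone and 1.57 and -1.93 at another. Tm2 (tropomyosin), Sod3 (a superoxide dismutase), RpS10a (a ribosomal protein), CG18858, CG7156 and CG9747 followed the same pattern, with averages between -0.43 and 0.19.

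The half-difference of these 14 clones was above 0 in 14 of 14 clones in every pair. Its median was 1.49 in pools 3 and 4, 1.13 in pools 1 and 2, 1.53 in pools 5 and 6 and 0.51 in pools 7 and 8. The sign for pools 3 and 4 was fixed by the choice, and the other pairs share the array design and the dyes but no RNA. The pair averages were not near 0 everywhere. That of alphaTub85E was 1.19 in pools 1 and 2, 2.73 in pools 5 and 6 and 0.19 in pools 7 and 8. For Sod3 these were 0.46, 0.87 and 0.30. In pools 1 and 2, 0 clones passed 2-fold in opposite directions. In pools 5 and 6 it was 3, and in pools 7 and 8 it was 2. Over all clones the half-difference of pools 3 and 4 correlated with that of the other pairs at 0.47, 0.41 and 0.27 (pools 1 and 2, 5 and 6, 7 and 8), and the averages at 0.14, -0.10 and 0.09. The deposited values were taken as 1 pool over the other on both arrays, and this orientation was not tested. Were the reversed-label array turned in sign, the 14 clones would be those that agree past 2-fold and the 22 low clones those that oppose.

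The other gene lists lay near 0 in pools 3 and 4. Of 29 lists, 28 had a clone, 252 different clones of 197 genes in all, and their median averages ran from -0.16 to 0.19. Past 1.5-fold on both arrays, 2 of the 252 clones were lower, eIF4E5 and betaTub65B, and 0 were higher (0.982% and 0.0237% of all clones). The 11 translation factors had the lowest median, -0.16, with 9 below 0, and apart from eIF4E5 they ran from -0.27 (eIF3m) to 0.26 (eIF3d2). The 14 ribosomal protein clones had a median of 0.11, and the 16 proteasome clones 0.07. Of the 27 odorant-binding protein clones (median -0.01), a clone of Obp56g was highest, with 0.33 and 0.77. The other clone of Obp56g had 0.16 and 0.32.

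Chaperones, which respond to many stresses, had a median of -0.06 over 29 clones. The 2 lowest were a clone of Hsc70-1 (0.17 on the normal-label and -2.05 on the reversed-label array) and Hsp68 (-0.15 and -1.74), so the low average came from the reversed-label array in both. Other clones of Hsc70-1 had 0.57 and -1.59, and 0.15 and 0.18. The list of alcohol and aldehyde metabolism held 3 clones, with Aldh7A1 at -0.12 on both arrays, Fbp2 at -0.01 and -0.12, and Aldh-III at -0.11 and 0.29. Whether these enzymes act on ethanol was not tested. The 4 cytochrome P450 clones ran from -0.42 (Cyp12d1-p, with 0.05 and -0.90) to 0.04. Yolk and fat body genes (12 clones) had a median of -0.05, genes of the ovary germline (7 clones) 0.09 and circadian clock genes (8 clones) 0.05, with per the highest at 0.51. No clone on the array carried a symbol of the eggshell list.

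**Figure D5:**
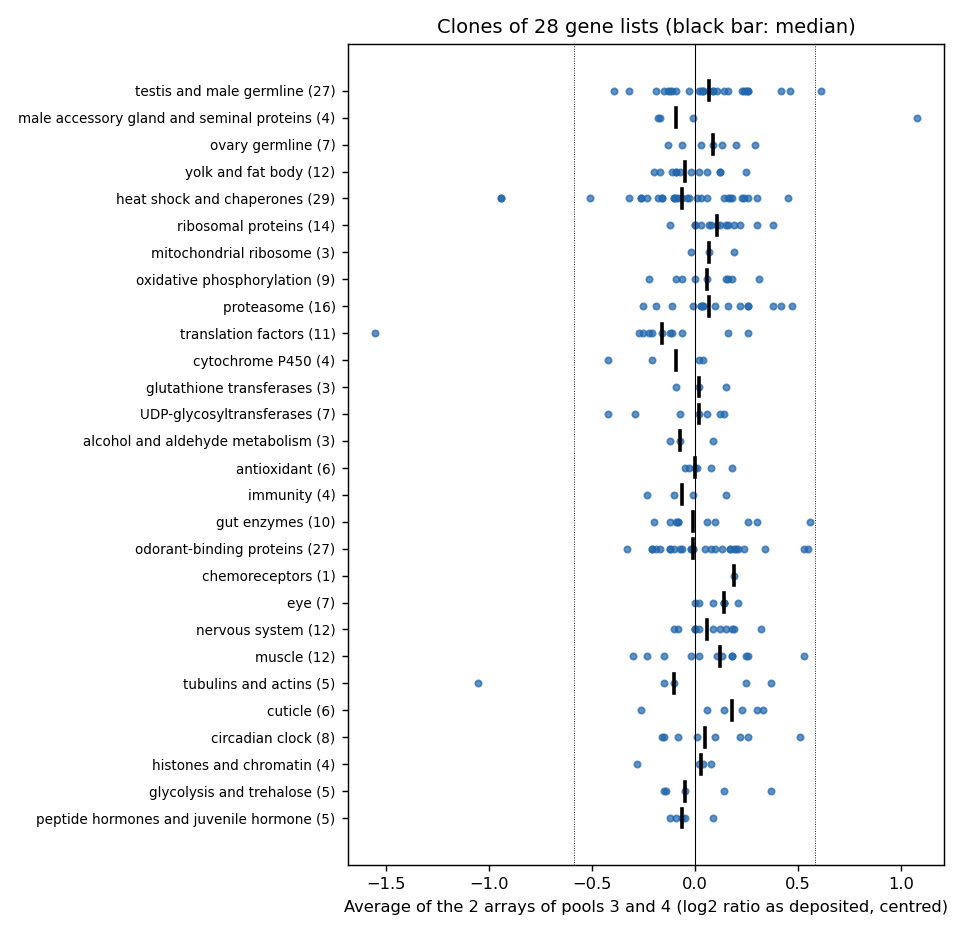
Average of the 2 arrays of pools 3 and 4 (log2 ratio) for each clone of the 28 gene lists with a clone, number of clones in brackets; black bars are medians and dotted lines mark 1.5-fold. The medians lie between -0.16 and 0.19, the points past the lower dotted line are eIF4E5, betaTub65B, Hsc70-1 and Hsp68, and those past the upper are Acp53C14a and boly.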

How the data were processed

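The authors deposited 1 log2 ratio per spot and array (base 2 inferred here from the values), already centred near 0. The sources used here do not give scanner settings, background correction, normalization or the numerator channel. From these, each array's median was subtracted, 2 neighbouring spots were averaged as 1 clone and arrays were averaged within pairs with the sign as deposited. Tests used limma 3.58.1 in R 4.3.3 with Benjamini-Hochberg adjustment over 8448 clones at 5%. They were also run on simulated data with normal noise of the technical spread, without a spread between pools and without single-spot outliers. Such data cannot show how the tests behave where pools vary or single spots stand out. Arrays give no counts, so their number limits precision. Symbols came from the platform annotation and were all found in RefSeq. Named were the 15 clones furthest from 0 on both arrays in each direction, called clones and up to 3 clones of each list, all with 1 symbol. Further clones were chosen after their values were seen. Members and lists were chosen with earlier results of these data known. Alternatives were no centring, scaled spread, quantile normalization, single spots, other folds, left-out arrays and, chosen after seeing the data, counts past 1.5-fold.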

Additional observations from a re-analysis of the deposited data

Results flagged for a closer look

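Among 15 sets of 4 pair values or 8 array values that underlie the text, 6 had a value far from the others by Dixon's test, where chance gives about 1 in 20, and the sets are not independent. None of the 6 values belongs to pools 3 and 4, and all belong to pools 5 and 6. The normal-label array of pools 5 and 6 had an SD over clones of 0.607 (0.42 and 0.384 in pools 3 and 4) and 7.63% of clones past 2-fold (1.63% and 1.88% in pools 3 and 4). Pools 5 and 6 also had 80 clones past 1.5-fold higher on both arrays (2 in pools 3 and 4), 7 past 2-fold higher on both arrays (0 in pools 3 and 4), 35 with all 4 spots past 1.5-fold higher (0 in pools 3 and 4), and a robust SD of the pair average of 0.315 (0.183 in pools 3 and 4).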

How the results depend on the processing

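Counts of 0 against the technical spread and against the mean of the other pairs stayed at 0 under every alternative run except leaving out an array of pools 3 and 4, where they ranged from 7 to 18 and from 6 to 13. The fit with pairs as the replicate block and no dye term also gave 0. The 14 calls against the spread of the other pairs became 8 to 47 without 1 array of pools 3 and 4, and 9, 29 and 6 without pools 1 and 2, 5 and 6, and 7 and 8. The 22 clones past 2-fold on both arrays became 85 at 1.5-fold and 14 with the reversed-label array turned. The 81 averages past 2-fold became 253 at 1.5-fold and 113 to 132 without 1 array. The 83 low clones became 54 when all 4 spots had to pass. The 2 high clones became 1 with scaled spread, 13 and 12 on odd and even spots alone, and 0 on all 4 spots. The median of the 83 low clones in pools 1 and 2 (-0.72) moved by less than the spread among the clones. The causes were not tested. Of 630 values of 90 named clones under alternatives, 26 changed sign, 0 of them among the 15 lowest clones. Those 15 were chosen for lying far below 0 on both arrays, and all 4 spots of each passed 1.5-fold lower. Their 0 was therefore nearly fixed by the choice. Called clones reversed in 3 cases: Dis3l2 had 0.14 on odd spots alone and 0.14 without the normal-label array, and CG8008 had -0.06 without the reversed-label array. With the other array left out instead, Dis3l2 had -5.43 and CG8008 3.60. With 2 arrays of 1 RNA pair, the spread between pools cannot be measured for pools 3 and 4, and the sign of each difference depends on a numerator that the labels leave unstated.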
